A study of Mus musculus with 6 samples.

Results

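The 37 genes described here encode the enzymes and switches that break glucose down, make it anew and store it as glycogen. They were chosen by name, with earlier results of these data known. Of the 37, 33 had a probe set with that symbol among the 19505 named genes of the array, always 1 probe set per gene. Gpi1, Eno1, Pfkfb1 and Pfkfb2 were not analysed here, because no row carried these symbols. The 6 Affymetrix arrays, 3 per group, were all labelled liver of C57BL/6J mice. In the H-Exo group, the mice were gavaged daily for 14 days with 2000000000 fecal exosomes per dose from obese donors kept on a high-fat diet (HFD). In the L-Exo group, the same dose came from lean donors kept on regular chow. For exosome isolation the methods pool fecal pellets of several mice, so separate recipients need not mean separate donors. Exosomes are small membrane vesicles that cells release, and both kinds were taken as carrying CD63 and the intestinal protein A33. Every recipient ate HFD during the 14 days, so no array represents chow-fed or untreated mice, and the methods describe purchased male mice of 8 to 12 weeks. Whether the 3 arrays of a group represent 3 separate mice is stated by none of the sources, and the p-values below therefore measure only the spread between these arrays.

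Glycolysis splits glucose into pyruvate through enzymes that most cells share, whereas hexokinase, phosphofructokinase and pyruvate kinase catalyse its regulated steps and exist as isozymes typical of different tissues. Gluconeogenesis runs the path backwards past those steps with enzymes of its own, mainly in liver, kidney and small intestine. Glycogen is the branched glucose store of liver and muscle, built by glycogen synthase with the branching enzyme and opened by glycogen phosphorylase. In liver these paths answer to insulin and glucagon. The comparison asks whether their genes differed after gavage of exosomes from obese donors, in a study of insulin resistance.

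Values are deposited log2 values, and a probe set was called above background where it exceeded 95% of the 5222 negative control probes on the same array. This level lay between 7.97 and 8.41 on the H-Exo arrays and between 8.16 and 8.31 on the L-Exo arrays. Of 16 measured hepatocyte markers, 2 (Cps1 and Hpd) were above background on all 6 arrays and 11 on none, among them the liver glycogen synthase Gys2. Of 17 measured markers of the intestinal epithelium, 15 were above it on all 6. Most defining markers of liver were thus at background, against the label, and the values below describe the RNA on the arrays. The replicate 1 arrays stood apart from the rest. Their mean correlation with the other arrays was 0.963 for H-Exo 1 and 0.951 for L-Exo 1, against 0.971 to 0.975 for the other 4. The summed log2 level of 10 smooth muscle markers was highest on these arrays (21.2 on H-Exo 1 and 20.8 on L-Exo 1, against 18.3 to 19.4 elsewhere), with 8 of the 10 above background on all 6 arrays and 2 on some. The median log2 value of the 17 epithelial markers was lowest there (16.3 on H-Exo 1 and 16.0 on L-Exo 1, against 17.6 to 17.8 elsewhere). Their summed level was also lowest there but differed little (22.5 and 22.4, against 22.6 to 22.7). Among them Fabp2, Lgals4 and Anpep were near saturation on all 6 arrays. All 9 measured B cell markers had a higher mean in H-Exo than in L-Exo, with a median difference of 1.97. Their summed level ranged from 8.83 to 11.3 in H-Exo and from 8.13 to 8.20 in L-Exo, no B cell marker was above background on all 6 arrays and 6 were above it on none. Of the 8 measured T cell markers 7 were higher in mean, at background on all 6 arrays. All 9 cycling markers were lower in mean, with differences from -1.10 to -0.01. Of these 9, 3 were above background on all 6 arrays and 3 on none. Of the hepatocyte markers, 14 of 16 had a lower mean in H-Exo (median difference -0.53). Alb, the albumin gene, had 5.14, 5.47 and 5.86 in H-Exo and 8.31, 8.26 and 10.72 in L-Exo, above background on all 3 L-Exo arrays and on no H-Exo array (difference -3.61, limma adjusted p = 0.761). The part of these cell types in the results was not tested. In bulk RNA, fewer cells of a type and less RNA per cell cannot be told apart.

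Of the 33 measured genes, 17 were above background on all 6 arrays (51.5%, against 19.1% of all named genes), 6 on some arrays and 10 on none. The 17 comprised Pfkp, Aldoa, Tpi1, Gapdh, Pgk1, Pgam1, Pkm, Pklr, Ldha and Pdha1 of glycolysis and its exits, Fbp2 and Ppargc1a of gluconeogenesis, Khk, Pfkfb4, and Pygb, Pgm2 and Ugp2 of the glycogen path. The 10 genes at background throughout were Hk2, Pfkm, Pck2, Pcx, G6pc3, Pfkfb3, Pygl, Gys1, Gys2 and Gbe1. For these 10, differences are given on the log2 scale as measured, their size is uncertain, and no fold is given. No array was saturated for any of the 33.

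**Figure D1:**
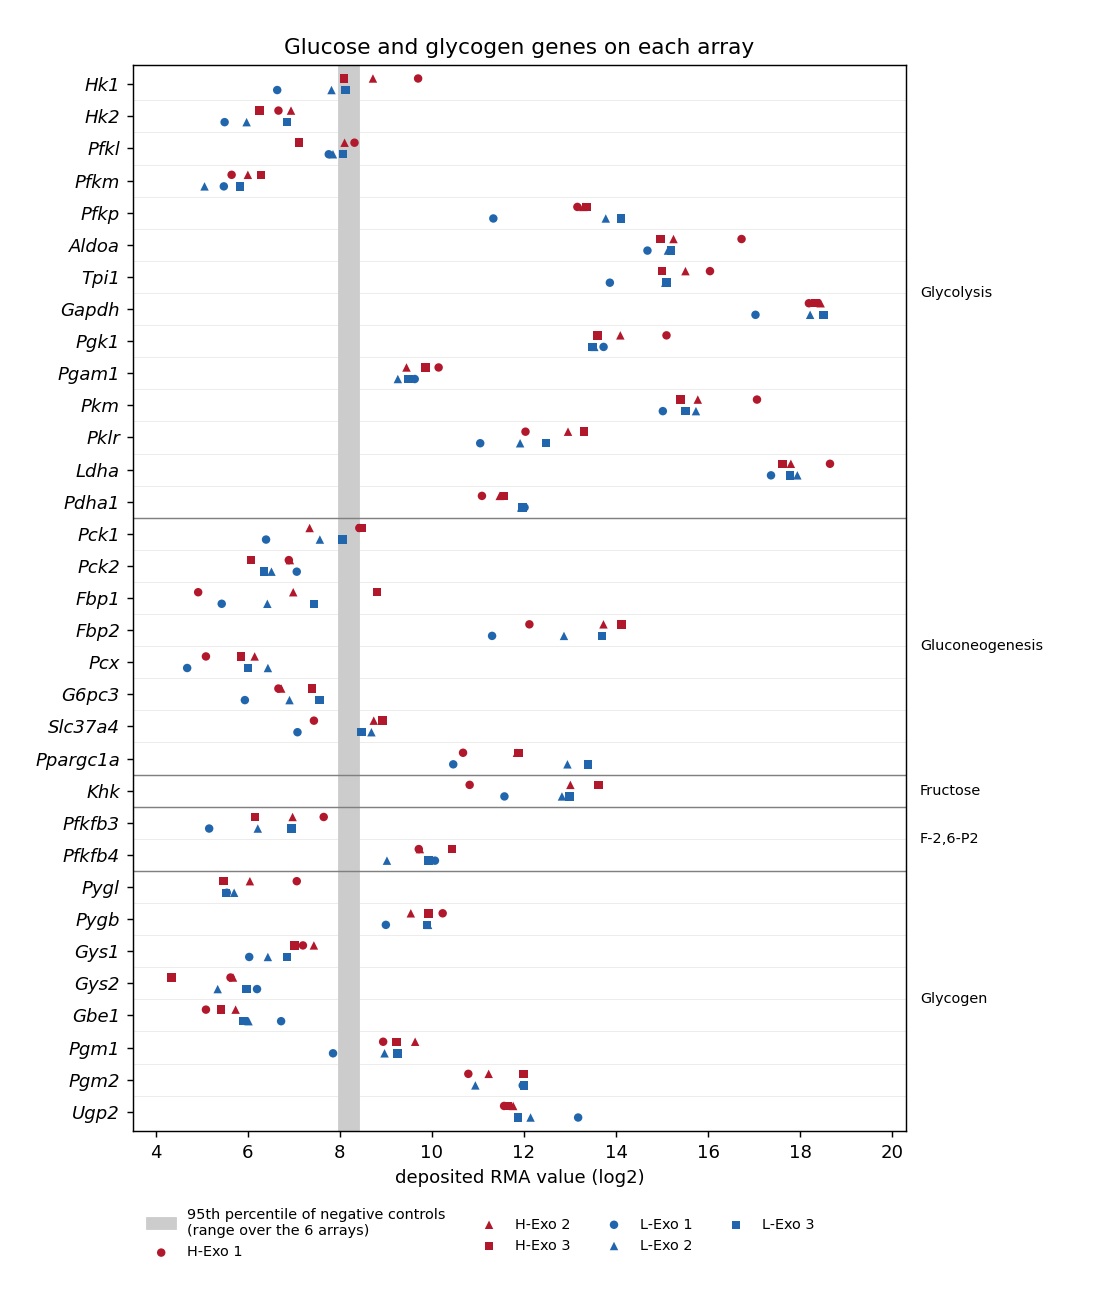
Deposited log2 value of each of the 33 measured genes on each array (horizontal axis), with H-Exo arrays in red above L-Exo arrays in blue, marker shapes for replicates 1 to 3, and the grey band for the background level (95th percentile of negative controls) over the 6 arrays. The values of 17 genes lie to the right of the level of their own array on all 6 arrays, and those of 10 genes lie to the left of it on all 6; positions of different genes are not comparable, because each probe set has its own response.

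No gene of the 33 passed limma's test between H-Exo and L-Exo at an adjusted p under 0.05, as no probe set of the whole array did (0% of 22206). The lowest adjusted p of the 33 was 0.988, and with array weights limma called 0.045% of all probe sets and 0 of the 33. Before adjustment, 3 genes had a p under 0.05, against 4.06% of all probe sets (a share that would give 1.34 of 33 genes). They were Hk1 and Gys1, higher in H-Exo as were 2.32% of all probe sets, and Gbe1, lower as were 1.74%. The groups did not overlap for 4 of the 33, against 9.61% of all probe sets, a share that would give 3.17 of 33. Gys1 was the one higher in H-Exo (4.9% of all probe sets), and Pdha1, Gbe1 and Ugp2 were lower (4.71%). Neither count therefore stood far from the array at large. In direction, 24 of the 33 genes had a higher mean in H-Exo. Their differences had a median of 0.36 on the log2 scale and ranged from -0.80 to 1.31, whereas 48.9% of all probe sets were higher and their median difference was -0.01. Without both replicate 1 arrays, 19 of the 33 were higher and the median difference was 0.10.

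**Figure D2:**
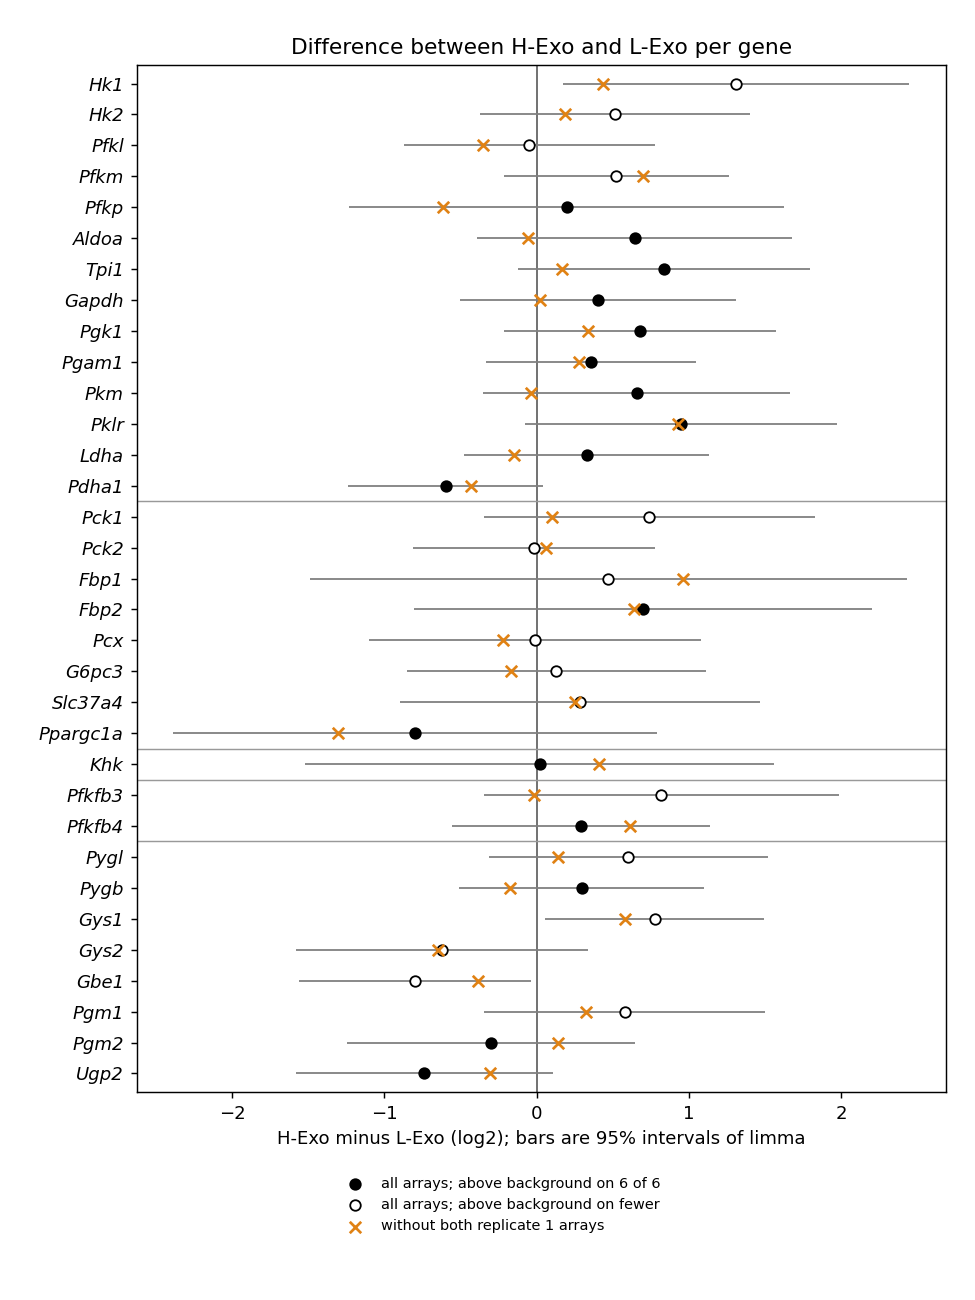
Log2 difference, H-Exo minus L-Exo, of each measured gene (horizontal axis) with limma's 95% interval as bars, filled points for genes above background on all 6 arrays, open points for the others, and crosses for the difference without both replicate 1 arrays. The intervals of Hk1, Gys1 and Gbe1 exclude 0 before adjustment, and many crosses lie closer to 0 than their points, as for Hk1 at 0.43 against 1.31.

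The entry step is the phosphorylation of glucose by hexokinase. Hk1, the hexokinase of most tissues, had log2 values of 9.70, 8.72 and 8.09 on the H-Exo arrays and 6.64, 7.82 and 8.13 on the L-Exo arrays. H-Exo 1 was the highest array and L-Exo 1 the lowest, and H-Exo 3 and L-Exo 3 lay side by side, so the groups overlapped. The mean was 8.84 ± 0.81 in H-Exo and 7.53 ± 0.79 in L-Exo (SD, n = 3 each), a difference of 1.31 (standard error 0.504, 95% interval 0.17 to 2.44, unadjusted p = 0.0283 by limma, adjusted p = 0.988). Hk1 was above background on 2 H-Exo arrays and on no L-Exo array, so the size of the difference is uncertain and no fold is given. With replicates 2 and 3 alone the difference was 0.43.

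The window around the second annotated start of Hk1 is printed because it holds 2 copies of ACGTG, the core bound by hypoxia-inducible factors, in capitals. It comes from RefSeq (GRCm38.p6, chr10:62340372-62340671, minus strand) and runs, as do all windows below, from 250 bases before to 50 after the start. Both copies lie within the 50 bases after the start. The 5 letters, searched on both strands, are part of the longer CACGTG and occur in 19.6% of all 32851 windows. Among the 57 windows of the genes described here 25 hold them, an Ldha window with 5 copies, so a match is a description only.
Hk1: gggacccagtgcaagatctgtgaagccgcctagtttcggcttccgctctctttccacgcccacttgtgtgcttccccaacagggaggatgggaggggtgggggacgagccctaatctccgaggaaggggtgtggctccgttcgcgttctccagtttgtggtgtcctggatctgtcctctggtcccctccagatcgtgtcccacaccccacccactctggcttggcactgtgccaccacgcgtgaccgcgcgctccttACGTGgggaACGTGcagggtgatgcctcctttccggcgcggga

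Hk2, the hexokinase that insulin induces in muscle and fat, had 6.67, 6.94 and 6.26 in H-Exo and 5.50, 5.98 and 6.85 in L-Exo, all below background. The groups overlapped through L-Exo 3, and the difference was 0.51 (standard error 0.394, adjusted p = 0.988). Within each array, Hk2 minus Hk1 was -2.22 ± 0.71 in H-Exo and -1.42 ± 0.37 in L-Exo (SD, n = 3), a change of -0.79 between the groups (exact permutation test, two-sided p = 0.3). In all, 11 such isozyme pairs were compared, each had an adjusted p of 0.9 (Benjamini-Hochberg over the 11), and 3 arrays against 3 allow no exact p below 0.1.

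Glucose entry was examined with 11 further measured genes, 7 of them with a higher and 4 with a lower mean in H-Exo, and limma called 0 of them. Hkdc1, a hexokinase-like gene and the neighbour of Hk1 on chromosome 10, was above background on all 6 arrays, unlike Hk1 and Hk2. It had 12.10, 11.66 and 11.30 in H-Exo and 11.62, 11.34 and 12.11 in L-Exo, overlapping, with a difference of -0.0002 (standard error 0.341). Slc2a1, the glucose transporter GLUT1, had 12.34, 10.23 and 8.38 in H-Exo and 8.32, 9.04 and 9.07 in L-Exo. H-Exo 1 stood far above the rest while H-Exo 3 lay within the L-Exo range. The difference was 1.51 (standard error 0.813, adjusted p = 0.988), and 0.25 without both replicate 1 arrays. Adpgk, a kinase that uses ADP to phosphorylate glucose, was at background on all arrays (6.43, 6.47 and 6.64 in H-Exo, against 4.47, 6.19 and 6.12 in L-Exo), with no overlap and a difference of 0.92 (standard error 0.458, adjusted p = 0.988), which was 0.36 without L-Exo 1.

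Phosphofructokinase commits sugar to glycolysis. Pfkp, the platelet-type subunit, was the isozyme above background on all 6 arrays, with 13.16, 13.29 and 13.36 in H-Exo and 11.34, 13.78 and 14.10 in L-Exo. The H-Exo values clustered tightly inside the wide L-Exo range, which L-Exo 1 opened at its low end. The difference was 0.20 (standard error 0.634, adjusted p = 0.992) and changed sign to -0.62 without both replicate 1 arrays. Pfkl, the liver-type subunit, had 8.32, 8.10 and 7.11 in H-Exo and 7.76, 7.85 and 8.07 in L-Exo, and passed background on 1 array, H-Exo 2. Pfkm, the muscle-type subunit, had 5.65, 6.00 and 6.29 in H-Exo and 5.48, 5.06 and 5.83 in L-Exo, below background throughout. Both genes overlapped between the groups, with differences of -0.05 (standard error 0.367) for Pfkl and 0.52 (standard error 0.328) for Pfkm. Between the groups, Pfkp minus Pfkl changed by 0.25 (exact p = 0.8), Pfkp minus Pfkm by -0.32 (exact p = 0.9) and Pfkl minus Pfkm by -0.57 (exact p = 0.4).

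The measured enzymes of the middle and lower path were above background on every array. Pgam1, at 9.26 to 10.15, stayed below the 99th percentile of the negative controls on each. Aldoa splits the 6-carbon sugar, Tpi1 interconverts the products, Gapdh oxidises them, Pgk1 yields ATP and Pgam1 shifts the phosphate. Their differences ranged from 0.36 for Pgam1 (standard error 0.306) to 0.84 for Tpi1 (standard error 0.426), with 0.40 for Gapdh, 0.64 for Aldoa and 0.68 for Pgk1, all with an adjusted p of 0.988 and with overlapping groups. Aldoa, Tpi1, Pgk1 and Pgam1 had their highest value on H-Exo 1, as did Ldha, which turns pyruvate into lactate and had a difference of 0.33 (standard error 0.357). Gapdh, often used as a loading control, lay between 18.19 and 18.44 in H-Exo and between 17.03 and 18.51 in L-Exo, where L-Exo 1 was the low array. In the absence of both replicate 1 arrays these 6 genes had differences of -0.15 (Ldha) to 0.34 (Pgk1).

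Pyruvate kinase closes the path with an isozyme of most tissues (Pkm) and one of liver, gut and red cells (Pklr). Pkm had 17.06, 15.78 and 15.40 in H-Exo and 15.02, 15.74 and 15.51 in L-Exo. H-Exo 1 stood above all other arrays and the remaining values interleaved. The difference was 0.66 (standard error 0.447, adjusted p = 0.988), and -0.04 without both replicate 1 arrays.

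Pklr had 12.03, 12.96 and 13.30 in H-Exo and 11.05, 11.92 and 12.48 in L-Exo. H-Exo 1 was the lowest of its group and lay between L-Exo 2 and L-Exo 3, so the groups overlapped. The mean was 12.76 ± 0.66 in H-Exo and 11.82 ± 0.72 in L-Exo (SD, n = 3), a difference of 0.95 (standard error 0.455, 95% interval -0.08 to 1.97, unadjusted p = 0.0663, limma adjusted p = 0.988). Leaving out both replicate 1 arrays gave nearly the same difference, 0.93, and Pklr was then one of 2 genes among the 33 with an unadjusted limma p under 0.05 in that fit (5.46% of all probe sets), which called no gene of the 33 after adjustment. Within arrays, Pklr minus Pkm was -5.03, -2.82 and -2.10 in H-Exo and -3.97, -3.82 and -3.03 in L-Exo, a change of 0.29 (exact p = 0.9). H-Exo 1 had the highest Pkm and the lowest Pklr of its group.

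The promoter of Pklr is shown because its window, at the second annotated start, carries the carbohydrate response element through which glucose is known to induce the gene in liver (RefSeq, GRCm38.p6, chr3:89136373-89136672, plus strand). Capitals mark the match to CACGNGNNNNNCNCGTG, searched on both strands, which begins at position -170 from the start. It overlaps no CACGTG, and 15 of 32851 windows hold it (0.0457%), 1 of them among the 57 windows of the genes described here.
Pklr: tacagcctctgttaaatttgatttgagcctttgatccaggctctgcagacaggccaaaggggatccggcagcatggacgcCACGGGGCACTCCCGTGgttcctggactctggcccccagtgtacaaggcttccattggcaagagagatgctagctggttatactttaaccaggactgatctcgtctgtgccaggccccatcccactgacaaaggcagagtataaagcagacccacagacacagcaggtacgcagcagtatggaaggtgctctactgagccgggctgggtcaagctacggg

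Pdha1 encodes a subunit of the pyruvate dehydrogenase that feeds pyruvate into the citrate cycle. Among genes of this path above background on all 6 arrays, it alone had a lower mean in H-Exo. It had 11.09, 11.47 and 11.57 in H-Exo and 12.01, 11.94 and 11.97 in L-Exo. Every H-Exo array lay below every L-Exo array, and the L-Exo values were within 0.1 of each other. The difference was -0.60 (standard error 0.284, 95% interval -1.24 to 0.04, unadjusted p = 0.0639, adjusted p = 0.988), and -0.43 without both replicate 1 arrays. Of 11 further measured genes of pyruvate entry into mitochondria, 8 had a lower and 3 a higher mean in H-Exo, with a median difference of -0.19, and none was called by limma. Mpc1, a mitochondrial pyruvate carrier subunit, had 13.57, 13.53 and 13.10 in H-Exo and 14.81, 14.23 and 13.24 in L-Exo, overlapping through L-Exo 3, with a difference of -0.69 (standard error 0.415). Pdk4, a kinase that inhibits pyruvate dehydrogenase, was at background on all arrays, with 5.97, 6.76 and 8.39 in H-Exo and 5.83, 5.98 and 6.50 in L-Exo. H-Exo 3 was its highest array, and the difference was 0.94 (standard error 0.554, adjusted p = 0.988).

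Of 11 other glycolytic isozymes and lactate genes, 5 had a higher and 6 a lower mean in H-Exo, and 9 were above background on no array, among them the enolases Eno2 and Eno3. Aldoc, a brain aldolase, did not overlap between the groups (5.69 to 6.19 in H-Exo and 6.33 to 6.72 in L-Exo) and had a difference of -0.54 (standard error 0.294). Tigar, a phosphatase that slows glycolysis, had one of -0.71 (standard error 0.397). Both were at background on all 6 arrays, and both had an adjusted p of 0.988. Slc16a3, a lactate exporter, was highest on H-Exo 1 at 10.36, against 6.51 to 7.10 on the other 5 arrays.

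The position of the arrays within the pathway was then counted. Of the 14 measured glycolysis genes, 12 had a higher mean in H-Exo, with a median difference of 0.52. H-Exo 1 held the highest of the 6 values for 8 of the 14 (57.1%), against 18.9% of all probe sets and 13.3% of those above background on all 6 arrays. L-Exo 1 held the lowest value for 9 of the 14 (64.3%), against 25.6% of all probe sets and 32.3% of those above background on all 6. Once both replicate 1 arrays were left out, 8 of the 14 were higher, with a median difference of 0.09. H-Exo 1 and L-Exo 1 were also the arrays with the highest smooth muscle and the lowest epithelial level given above, and the part of this in the glycolysis values was not tested.

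**Figure D3:**
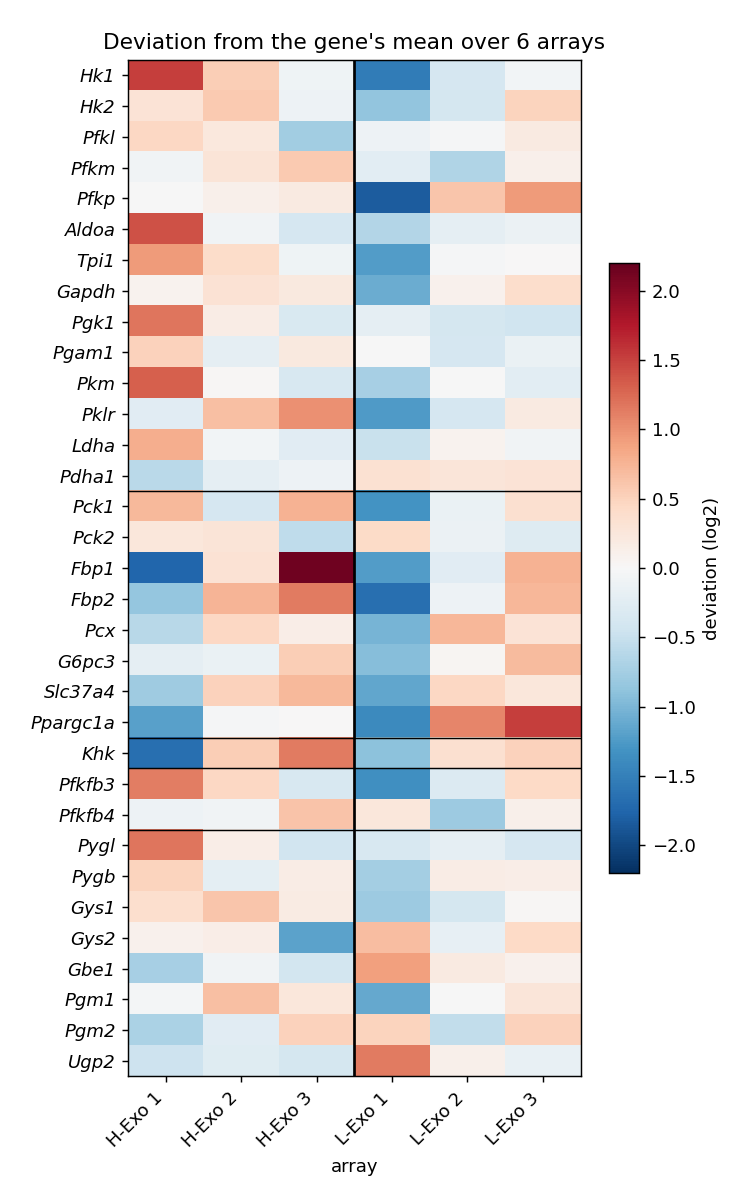
Deviation of each gene from its own mean over the 6 arrays on the log2 scale (colour; red above and blue below the mean), with arrays in columns, H-Exo left of L-Exo, and genes in rows grouped as glycolysis, gluconeogenesis, fructose, the 2,6-bisphosphate switch and glycogen. H-Exo 1 is red for Hk1, Aldoa, Tpi1, Pgk1 and Pkm and blue for Fbp1, Fbp2, Ppargc1a and Khk, and L-Exo 1 is the lowest array for 19 of the 33 genes.

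Gluconeogenesis was represented by 8 measured genes, of which 5 had a higher and 3 a lower mean in H-Exo (median difference 0.21), and in none did the groups separate. Pck1, cytosolic phosphoenolpyruvate carboxykinase and the classical insulin-repressed step, had 8.42, 7.34 and 8.47 in H-Exo and 6.40, 7.57 and 8.06 in L-Exo. H-Exo 1 and H-Exo 3 were above background and the other 4 arrays were not. The difference was 0.74 (standard error 0.483, 95% interval -0.35 to 1.83, limma adjusted p = 0.988), and 0.10 without both replicate 1 arrays. Pck2, the mitochondrial form, lay at background between 6.08 and 6.92 in H-Exo and between 6.35 and 7.07 in L-Exo, with a difference of -0.02 (standard error 0.352). Pck1 minus Pck2 changed by 0.76 between the groups (exact p = 0.5).

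The window of Pck1 is given because it holds the cAMP response element through which glucagon is known to act (RefSeq, GRCm38.p6, chr2:173152823-173153122, plus strand). Capitals mark TTACGTCA, searched on both strands, which begins at position -93 from the start. This form stands in 0.499% of all windows, it shares no position with the motifs above in this window, and among the genes described here Pck1 alone had it.
Pck1: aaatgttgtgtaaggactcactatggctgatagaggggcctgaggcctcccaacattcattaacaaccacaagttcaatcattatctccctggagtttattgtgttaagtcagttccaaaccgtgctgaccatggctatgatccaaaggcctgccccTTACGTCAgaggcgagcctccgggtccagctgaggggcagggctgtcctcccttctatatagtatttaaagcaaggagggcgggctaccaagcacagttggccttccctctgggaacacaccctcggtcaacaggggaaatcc

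Fructose-bisphosphatase reverses the phosphofructokinase step and has 2 genes that are neighbours on chromosome 13. Fbp1, the liver and kidney form, had 4.92, 6.99 and 8.80 in H-Exo and 5.44, 6.43 and 7.44 in L-Exo. H-Exo 3 was the only array above background and H-Exo 1 the lowest, so the H-Exo values enclosed all L-Exo values. Fbp2, described as the muscle form, had 12.12, 13.73 and 14.12 in H-Exo and 11.31, 12.87 and 13.70 in L-Exo, above background on all 6. In both groups replicate 1 was the lowest array and replicate 3 the highest, and the groups overlapped. The differences were 0.47 (standard error 0.870) for Fbp1 and 0.70 (standard error 0.667, adjusted p = 0.988) for Fbp2. The Fbp2 difference was 0.04 without L-Exo 1 and 1.30 without H-Exo 1. Fbp1 minus Fbp2 changed by -0.23 (exact p = 0.8).

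Both windows are shown side by side because the neighbours differed in signal over background (RefSeq, GRCm38.p6, chr13:62858351-62858650 for Fbp2 and chr13:62888233-62888532 for Fbp1, both minus strand). Capitals mark CACGTG, the E-box, which begins at position -42 from the start of Fbp2. It includes the ACGTG given for Hk1, was searched on both strands and stands in 7.15% of all windows. The Fbp1 window holds no match to these letters, from which nothing is drawn.
Fbp2: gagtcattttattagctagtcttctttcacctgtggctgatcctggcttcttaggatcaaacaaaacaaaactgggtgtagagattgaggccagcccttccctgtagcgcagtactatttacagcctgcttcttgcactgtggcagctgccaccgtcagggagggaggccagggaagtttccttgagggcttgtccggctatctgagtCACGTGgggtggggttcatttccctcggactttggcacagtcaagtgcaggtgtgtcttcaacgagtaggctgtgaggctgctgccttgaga
Fbp1: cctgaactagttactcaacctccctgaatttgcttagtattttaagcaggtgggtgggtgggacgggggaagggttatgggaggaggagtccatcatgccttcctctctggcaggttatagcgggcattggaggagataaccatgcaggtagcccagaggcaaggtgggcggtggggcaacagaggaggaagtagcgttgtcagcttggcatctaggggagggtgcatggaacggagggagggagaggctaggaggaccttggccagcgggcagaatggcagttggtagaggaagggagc

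Ppargc1a, the coactivator PGC-1 alpha that drives gluconeogenic and mitochondrial genes, had 10.68, 11.85 and 11.88 in H-Exo and 10.46, 12.94 and 13.39 in L-Exo. Within each group replicate 1 was the lowest array, and the groups overlapped. The mean was 11.47 ± 0.69 in H-Exo and 12.27 ± 1.58 in L-Exo (SD, n = 3), a difference of -0.80 (standard error 0.705, adjusted p = 0.988). On replicates 2 and 3 alone it was -1.30, with an unadjusted limma p under 0.05, the other such gene beside Pklr. Pcx, which makes oxaloacetate from pyruvate, had a difference of -0.01, G6pc3, a widely expressed glucose-6-phosphatase, one of 0.13, and Slc37a4, which carries glucose-6-phosphate into the endoplasmic reticulum, one of 0.29, with standard errors from 0.437 to 0.525. Slc37a4 was above background on 4 arrays and at 7.44 on H-Exo 1 and 7.08 on L-Exo 1 below it.

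Among 15 further gluconeogenic genes and regulators, 12 had a higher mean in H-Exo, 10 were above background on all 6 arrays, and limma called 0. Txnip, a glucose-induced inhibitor of glucose uptake, had 16.74, 18.95 and 18.93 in H-Exo and 15.75, 16.13 and 17.93 in L-Exo. H-Exo 2 and H-Exo 3 were the highest arrays and H-Exo 1 fell within the L-Exo range. The difference was 1.60 (standard error 0.706, unadjusted p = 0.0487, adjusted p = 0.988), and 1.91 without both replicate 1 arrays. Sik1, a kinase that restrains gluconeogenic transcription, was at background on all arrays (6.23 to 6.39 in H-Exo and 5.42 to 5.88 in L-Exo), did not overlap and had a difference of 0.75 (standard error 0.286, unadjusted p = 0.0277, adjusted p = 0.988). G6pc, the glucose-6-phosphatase of liver, kidney and gut, had 5.12, 9.16 and 11.35 in H-Exo and 4.96, 6.78 and 6.71 in L-Exo. It was above background on H-Exo 2 and H-Exo 3, and replicate 1 was the lowest array of each group. The difference was 2.39 (standard error 1.29, adjusted p = 0.988), 0.99 to 4.10 with 1 array left out and 3.51 without both replicate 1 arrays, and no fold is given.

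Khk, the ketohexokinase that admits fructose to the path in liver, kidney and gut, was above background on all 6 arrays, with 10.82, 13.01 and 13.62 in H-Exo and 11.58, 12.83 and 12.98 in L-Exo. H-Exo 1 and L-Exo 1 were the low arrays of their groups, and the means were alike at 12.48 ± 1.47 in H-Exo and 12.46 ± 0.77 in L-Exo (SD, n = 3). The difference was 0.02 (standard error 0.684), with a 95% interval from -1.52 to 1.56. At 3 arrays per group, the values are thus compatible with a change in either direction within that interval. H-Exo 1 was likewise the lowest H-Exo array for 6 of 8 gluconeogenesis genes (75%) and L-Exo 1 the lowest L-Exo array for 7 of 8 (87.5%), against 36.0% and 38.8% of all probe sets and 50.02% and 47.6% of those above background on all 6 arrays.

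The bifunctional enzymes of fructose-2,6-bisphosphate set the balance between phosphofructokinase and fructose-bisphosphatase. Pfkfb3, the inducible form of proliferating cells, had 7.65, 6.97 and 6.16 in H-Exo and 5.16, 6.22 and 6.95 in L-Exo, below background throughout. The arrays ran from H-Exo 1 as the highest to L-Exo 1 as the lowest, with the others mixed. Pfkfb4, a form first described in testis, had 9.72, 9.74 and 10.44 in H-Exo and 10.07, 9.02 and 9.93 in L-Exo, above background on all 6 and overlapping. The differences were 0.82 (standard error 0.517) for Pfkfb3, which was -0.02 without both replicate 1 arrays, and 0.29 (standard error 0.376) for Pfkfb4. Pfkfb3 minus Pfkfb4 changed by 0.53 (exact p = 0.5).

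**Figure D4:**
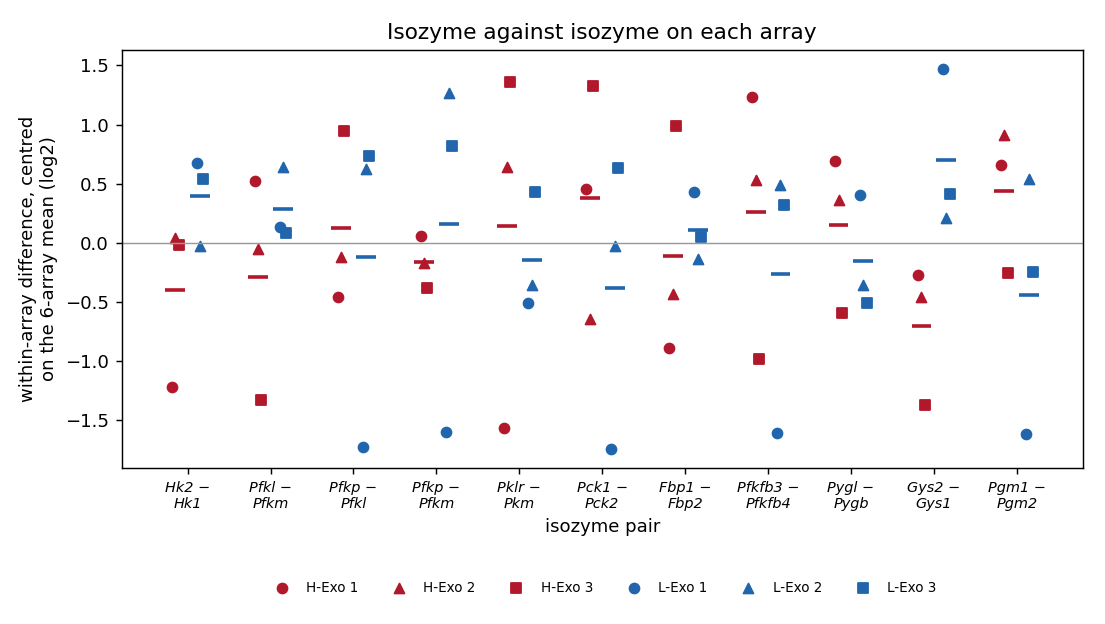
Within-array log2 difference between 2 isozymes for the 11 pairs (vertical axis, centred on the mean of the 6 arrays), with H-Exo in red left of L-Exo in blue, marker shapes for replicates 1 to 3 and bars for group means. Gys2 minus Gys1 is the only pair in which all H-Exo arrays lie below all L-Exo arrays, and a replicate 1 array is the highest or lowest of the 6 in each other pair except Pfkl minus Pfkm.

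Glycogen genes were divided evenly, 4 of 8 with a higher and 4 with a lower mean in H-Exo, with a median difference of -0.003. Gys1, Gbe1 and Ugp2 did not overlap between the groups, as did not 9.61% of all probe sets, and the first 2 lay below background on every array. Gys1, the muscle-type glycogen synthase, had 7.20, 7.44 and 7.01 in H-Exo and 6.03, 6.44 and 6.86 in L-Exo. All H-Exo arrays lay above all L-Exo arrays, yet all 6 values were below background, with 70.6% to 91.8% of negative control probes beneath them. The difference was 0.77 (standard error 0.319, 95% interval 0.06 to 1.49, unadjusted p = 0.0376 by limma, adjusted p = 0.988), and 0.58 without both replicate 1 arrays. Gys2, the liver-type synthase, had 5.63, 5.68 and 4.34 in H-Exo and 6.20, 5.35 and 5.97 in L-Exo, also below background, overlapping through L-Exo 2. Its difference was -0.62 (standard error 0.426). Within arrays, Gys2 minus Gys1 was -1.57, -1.76 and -2.67 in H-Exo and 0.17, -1.09 and -0.88 in L-Exo, with no overlap. The change was -1.40 (exact two-sided p = 0.1, 0.9 after adjustment over 11 pairs), between genes of which neither exceeded background on any array.

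Gbe1, the branching enzyme, had 5.09, 5.74 and 5.42 in H-Exo and 6.73, 6.02 and 5.91 in L-Exo. Each H-Exo array lay below each L-Exo array, again under background throughout. The difference was -0.80 (standard error 0.338, 95% interval -1.56 to -0.04, unadjusted p = 0.041, adjusted p = 0.988), and -0.39 without both replicate 1 arrays.

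Ugp2, which makes the UDP-glucose used for glycogen, was the one glycogen gene that separated the groups with every array above background. Ugp2 stayed below the 99th percentile of the negative controls on every H-Exo array and on L-Exo 3. It had 11.57, 11.77 and 11.64 in H-Exo and 13.18, 12.14 and 11.87 in L-Exo. The H-Exo values lay close together and just below L-Exo 3, while L-Exo 1 was far higher than the rest. The mean was 11.66 ± 0.10 in H-Exo and 12.40 ± 0.69 in L-Exo (SD, n = 3), a difference of -0.74 (standard error 0.375, 95% interval -1.58 to 0.11, adjusted p = 0.988). Without both replicate 1 arrays it was -0.30.

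Glycogen phosphorylase frees glucose-1-phosphate. Pygl, the liver form, had 7.07, 6.05 and 5.47 in H-Exo and 5.55, 5.71 and 5.53 in L-Exo, at background on all arrays, with H-Exo 1 above the others. Pygb, the brain form, had 10.23, 9.54 and 9.92 in H-Exo and 9.0, 9.92 and 9.90 in L-Exo, above background on all 6, with L-Exo 1 below the others. The differences were 0.60 (standard error 0.407) for Pygl, which was 0.17 without H-Exo 1, and 0.30 (standard error 0.357) for Pygb, and Pygl minus Pygb changed by 0.31 (exact p = 0.7). Pygm, the muscle form, was above background on no array.

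Phosphoglucomutase links glycogen to glycolysis. Pgm1 had 8.94, 9.64 and 9.23 in H-Exo and 7.85, 8.97 and 9.25 in L-Exo, with L-Exo 1 the single array below background. Pgm2 had 10.79, 11.23 and 11.99 in H-Exo and 11.97, 10.94 and 12.00 in L-Exo, above background on all 6. Both overlapped between the groups, with differences of 0.58 (standard error 0.409) for Pgm1 and -0.30 (standard error 0.420) for Pgm2, and Pgm1 minus Pgm2 changed by 0.88 (exact p = 0.3).

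Of 16 further measured glycogen genes, 9 had a higher and 7 a lower mean in H-Exo, 11 were above background on no array and limma called 0. Ppp1r3c and Ppp1r3d, which tether protein phosphatase to glycogen, each separated the groups at background level. Ppp1r3c lay between 5.0 and 5.51 in H-Exo and between 4.17 and 4.92 in L-Exo (difference 0.61, standard error 0.323). Ppp1r3d lay between 3.63 and 4.08 in H-Exo and between 4.35 and 4.64 in L-Exo (difference -0.69, standard error 0.287, unadjusted p = 0.0389, adjusted p = 0.988). Over all 7 lists of neighbouring genes, 73 of 83 genes were measured, 43 had a higher and 30 a lower mean in H-Exo, and 0 were called by limma, with 2 higher and 1 lower at an unadjusted p under 0.05, against 2.32% and 1.74% of all probe sets.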

How the data were processed

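Total RNA (TRIzol and 90 ng per sample in the labels, a Qiagen kit and 100 ng in the methods) was labelled with biotin and hybridised to 6 Affymetrix arrays. The authors deposited log2 values from Transcriptome Analysis Console 4.0. RMA there corrected background, equalised the arrays and summarised each probe set. A genome build was not stated. RMA forces equal distributions, so a shift shared by most genes would not show. Of 28846 rows, 5222 negative and 1418 other control rows were left out of testing, and 19572 of the 22206 tested probe sets carried 1 symbol through the platform annotation. H-Exo was compared with L-Exo by limma 3.58.1 (R 4.3.3; lmFit, eBayes) with Benjamini-Hochberg adjustment over all 22206. Isozymes were compared by exact permutation of within-array differences. The limma step was tested on simulated data. The members and lists were chosen with earlier results of these data known. Per-array values were given for members with an unadjusted p under 0.05 or without overlap, for isozyme families with a member above background on all 6 arrays, and for preset regulated steps. Of each neighbouring list the 2 genes with the smallest p were named, and genes that a member pairs with (G6pc, Pygm, Eno2, Eno3) were preset. Slc16a3 and Hkdc1 were chosen after their values were seen. Alternatives were other scalings, filters, array weights, a replicate block, the methods' t-test and leaving arrays out. The number of arrays limits the precision. Promoter windows of 36 of the 37 genes came from RefSeq.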

Additional observations from a re-analysis of the deposited data

How the results depend on the processing

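Over all probe sets limma called 0. Array weights called 10, leaving out 1 array called 0 to 1 (L-Exo 1 and H-Exo 3 were the arrays whose absence gave 1), leaving out both replicate 1 arrays called 1, and the replicate block called 0. At an unadjusted p under 0.05 there were 901 by limma and 921 by the methods' t-test. Of the 33 genes each of these adjusted fits called 0, with 3 at an unadjusted p by limma and 2 by the methods' t-test. The median difference of the 33 was 0.36, 0.16 to 0.57 with 1 array left out and 0.10 without both replicate 1 arrays, and 17 genes were above background on all 6 arrays, against 6 at the 99th percentile of the negative controls. In the labels, samples with the same number share only that number. Their deviations from the group mean correlated at 0.219, 0.0429 and 0.182 for replicates 1 to 3. H-Exo 1 and H-Exo 3 correlated best with the L-Exo array of their own number, and H-Exo 2 with L-Exo 3.

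Of the 33 genes, 17 kept their direction under the 10 alternatives that can move a difference (2 scalings, array weights and 7 fits with arrays left out) and 16 reversed under at least 1, none of them called. With array weights the differences of Pfkp (-0.38), Pck2 (0.14), G6pc3 (-0.061), Pygb (-0.064) and Pgm2 (0.13) reversed, and with quantile normalization that of Pcx (0.017). Without both replicate 1 arrays Pfkp (-0.62), Aldoa (-0.058), Pkm (-0.037), Ldha (-0.15), Pck2 (0.063), G6pc3 (-0.17), Pfkfb3 (-0.019), Pygb (-0.17) and Pgm2 (0.14) reversed, as did Pfkp minus Pfkl (-0.26), Fbp1 minus Fbp2 (0.32) and Pfkfb3 minus Pfkfb4 (-0.63). With 1 array left out, the ranges that crossed 0 were -0.29 to 0.32 for Pfkl, -0.67 to 0.71 for Pfkp, -0.043 to 0.70 for Gapdh, -0.16 to 0.26 for Pck2, -0.48 to 1.46 for Fbp1, -0.52 to 0.36 for Pcx, -0.30 to 0.51 for G6pc3, -0.21 to 0.75 for Slc37a4, -0.55 to 0.85 for Khk, -0.034 to 0.49 for Pfkfb4 and -0.0073 to 0.47 for Pygb. For isozyme pairs they were -0.56 to 0.67 for Pfkp minus Pfkl, -1.20 to 0.23 for Pfkp minus Pfkm, -0.32 to 1.15 for Pklr minus Pkm, -0.78 to 0.16 for Fbp1 minus Fbp2 and -0.15 to 1.15 for Pfkfb3 minus Pfkfb4. The cause was not tested.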

Other observations

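Fructose and galactose entry was measured by 3 of 7 listed genes, all with a higher mean in H-Exo and none called by limma. Galm, which converts galactose between its ring forms, had log2 values of 11.61, 12.69 and 13.26 in H-Exo and 11.11, 12.21 and 12.49 in L-Exo, above background on all 6 arrays. Replicate 1 was the lowest array of each group and the groups overlapped, with a difference of 0.58 (standard error 0.499, adjusted p = 0.988). Galt, the uridylyltransferase of galactose breakdown, had 8.42, 8.44 and 8.28 in H-Exo and 7.11, 8.34 and 8.08 in L-Exo. The groups overlapped through L-Exo 2, and the difference was 0.54 (standard error 0.364, adjusted p = 0.988).

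The pentose phosphate branch was measured by 6 of 8 listed genes, 4 with a higher and 2 with a lower mean in H-Exo. Rpe, which interconverts pentose phosphates, had 10.81, 10.61 and 10.32 in H-Exo and 11.22, 11.20 and 11.20 in L-Exo, above background on all 6. All H-Exo arrays lay below all L-Exo arrays, with a difference of -0.63 (standard error 0.282, unadjusted p = 0.0519, limma adjusted p = 0.988), and -0.74 without both replicate 1 arrays. Pgls, the lactonase of the branch, had 9.06, 8.27 and 8.38 in H-Exo and 7.79, 8.51 and 8.11 in L-Exo, overlapping, with a difference of 0.44 (standard error 0.341).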
